A study of Mus musculus with 2 samples.

Results

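Dense clusters of distal accessible sites were examined in thymus tissue, the organ in which T cells mature. The data came from DNase-seq of 2 female B6CASTF1/J mice aged 36 days, with 1 library per mouse. The libraries are called mouse 1 and mouse 2 after their biological replicate numbers. The labels number the animals apart but give both the same donor entry, and they were treated as separate animals. B6CASTF1/J animals are first-generation hybrids of the C57BL/6J and CAST/EiJ strains. Both libraries belong to the same untreated group of whole tissue, so there was no contrast between conditions, and every comparison was between sets of sites within each mouse. A site is a peak of the shorter of the 2 deposited peak lists of a library. It was called distal when it lay more than 1 kb from every annotated transcription start site, and shared when it overlapped a peak of the other mouse by at least 1 bp. The clusters were chosen by joining the shared distal autosomal peaks of mouse 1 across gaps of at most 12500 bp and keeping joined groups of 5 or more peaks. This gave 618 clusters with 4322 peaks, which is 17.3% of the 24911 shared distal autosomal peaks. The other 20589 shared distal peaks stood alone or in smaller groups. Mouse 1 had 59484 peaks in all, and mouse 2 had 72913.

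Distal accessible sites are mostly enhancers, insulators and other regulatory elements that transcription factors keep open. Enhancers of genes that define a cell's identity often lie in dense groups, called stretch enhancers or super-enhancers when they carry high levels of active chromatin marks. A gap of the length used here is a common setting for joining enhancers in that work. Only accessibility was measured in these libraries, so no site was shown here to act as an enhancer. In whole tissue, a low peak in every cell and a high peak in few cells cannot be told apart.

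The clusters with most peaks lay at Tcf7, Zfp36l2, a stretch of chromosome 16 without a protein-coding gene, Rara, Gm525, Kdm6b and Ddit4. Next came Nup214 with Fam78a, the Cd8 genes and a stretch nearest to Rasgrp1. The strongest peak of 7 of these 10 clusters is printed below, to show what DNA these sites hold. The strongest peak is the one with the highest mean of the signals in both mice, the signal being the authors' deposited value for a peak. Its scale is not named, so a difference in scaling and a difference in level between the mice cannot be told apart. Sequences are RefSeq reference sequence of GRCm38 (mm10), plus strand, 5′ to 3′, at most the central 300 bases of the peak. The reference is that of C57BL/6J, so alleles of CAST/EiJ are not shown. Capitals mark matches on either strand to short consensus letters of 3 factors or families: RUNX (TGTGGT), ETS (AGGAAG) and CTCF (CCA, any 2 bases, AG, any 2 bases, GGC).
Tcf7 cluster, chr11:52314181-52314240: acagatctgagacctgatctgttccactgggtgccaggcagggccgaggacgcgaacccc
Zfp36l2 cluster, chr17:84180771-84181070: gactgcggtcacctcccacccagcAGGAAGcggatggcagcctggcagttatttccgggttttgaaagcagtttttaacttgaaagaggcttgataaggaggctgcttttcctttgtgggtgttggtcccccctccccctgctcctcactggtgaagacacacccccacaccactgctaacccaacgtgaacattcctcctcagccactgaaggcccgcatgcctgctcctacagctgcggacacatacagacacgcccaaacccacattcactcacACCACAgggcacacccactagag
Chromosome 16 cluster, chr16:95869641-95869700: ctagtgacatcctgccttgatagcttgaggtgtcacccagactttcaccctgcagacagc
Rara cluster, chr11:98942141-98942380: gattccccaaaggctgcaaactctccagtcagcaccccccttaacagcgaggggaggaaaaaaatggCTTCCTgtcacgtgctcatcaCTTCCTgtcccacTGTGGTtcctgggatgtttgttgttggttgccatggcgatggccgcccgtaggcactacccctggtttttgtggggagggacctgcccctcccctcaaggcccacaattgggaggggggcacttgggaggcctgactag
Gm525 cluster, chr11:89077661-89077960: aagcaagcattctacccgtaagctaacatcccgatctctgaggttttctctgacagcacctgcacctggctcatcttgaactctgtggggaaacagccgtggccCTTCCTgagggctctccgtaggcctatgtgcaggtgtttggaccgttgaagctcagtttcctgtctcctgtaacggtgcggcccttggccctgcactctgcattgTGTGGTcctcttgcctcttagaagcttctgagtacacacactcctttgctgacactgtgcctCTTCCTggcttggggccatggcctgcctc
Cd8 cluster, chr6:71369441-71369740: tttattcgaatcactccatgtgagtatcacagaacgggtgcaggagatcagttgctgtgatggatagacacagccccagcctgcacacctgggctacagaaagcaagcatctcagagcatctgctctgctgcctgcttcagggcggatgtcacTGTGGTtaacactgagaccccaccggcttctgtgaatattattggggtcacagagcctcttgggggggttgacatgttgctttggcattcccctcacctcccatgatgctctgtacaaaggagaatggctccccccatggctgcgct
Rasgrp1 cluster, chr2:117439141-117439320: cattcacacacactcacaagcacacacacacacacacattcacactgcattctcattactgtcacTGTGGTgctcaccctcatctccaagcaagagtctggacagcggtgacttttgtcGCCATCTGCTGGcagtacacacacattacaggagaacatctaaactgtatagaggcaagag

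The printed peaks did not share one layout. The Rara peak held 1 RUNX match and 2 ETS matches, and so did the Gm525 peak. The Zfp36l2 peak held 1 RUNX and 1 ETS match. The Cd8 peak held 1 RUNX match and no ETS match. The Rasgrp1 peak held 1 RUNX match and 1 CTCF match. E-box letters (CAGNTG, bound by E proteins such as E2A and HEB) matched 3 times in the Gm525 and Cd8 peaks, and 1 time in the Zfp36l2 and Rasgrp1 peaks. In the Rasgrp1 peak the E-box match lies within the marked CTCF match, so the same bases count for both. The Tcf7 peak and the chromosome 16 peak were 60 bp long, and none of the 12 motifs searched had a match in either. A match is only a run of letters, and no match says only that these letters are not in the window. These peaks were chosen as the highest of their clusters, and their signals differed: 20.8 in mouse 1 and 23.3 in mouse 2 for the Tcf7 peak, 17.9 and 16.7 for the Zfp36l2 peak, and 17.3 and 14.98 for the Cd8 peak, but 3.48 and 6.54 for the Rasgrp1 peak.

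Most clusters were small, and a few were very large. The median cluster had 6 peaks, and the number ran up to 65. Only 80 clusters had 10 or more peaks, holding 25.7% of the clustered peaks, and 8 had 20 or more. At the threshold, 507 groups had exactly 4 peaks with a median span of 10167 bp, and 252 had exactly 5 with a median span of 13240 bp. The median cluster spanned 16457.5 bp, the shortest 2060 bp and the longest 98.2 kb. All clusters together covered 11.4 Mb, or 0.464% of the autosomes. Neighbouring peaks can be parts of one wider accessible region. Regions of significant cutting, made by merging the authors' base runs with a false discovery rate below 0.05, were therefore counted as well. The peaks of a cluster fell into a median of 5 such regions in each mouse. In mouse 1, 406 clusters (65.7%) had peaks in 5 or more separate regions, and in mouse 2, 439 clusters (71.0%) did. Runs were merged only where they touch, so a single peak can hold several regions. At Grk2, 11 peaks met 3 regions in mouse 1 and 22 in mouse 2, so these are not counts of independent sites.

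Between their peaks the clusters were more open than the genome at large. Outside all peaks, 14.7% of the bases of clusters in mouse 1 lay in regions of significant cutting, against 0.858% of autosomal bases. In mouse 2 the shares were 16.0% in clusters and 1.00% of autosomal bases. Over whole clusters, peaks included, the median accessible share of the span was 24.3% in mouse 1 and 24.8% in mouse 2. The bases outside peaks include those right beside a peak, and the clusters were chosen by closely spaced peaks. The higher shares are therefore partly set by the rule and are a description.

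The cluster at Tcf7 had the most peaks, the longest span and the highest summed signal. Tcf7 encodes TCF1, an HMG-box factor that acts below Notch signalling and is needed to commit cells to the T lineage. Its cluster lay at chr11:52253081-52351240, spanned 98.2 kb and held 65 shared distal peaks in each mouse. Of those of mouse 1, 26 lay in the body of Tcf7, 39 lay upstream of it and 0 downstream. They fell into 38 separate accessible regions in mouse 1 and 40 in mouse 2. A summed signal adds every clustered peak of mouse 1 and, in mouse 2, the peaks that overlap those most, each counted once. Mouse 2 peaks that are not such a partner are left out. The summed signal of the Tcf7 cluster was 148 in mouse 1 and 209 in mouse 2, ahead of all other clusters in both mice. Most of its peaks were low: the lowest, median and highest signals were 0.415, 1.19 and 20.8 in mouse 1, and 0.453, 1.35 and 23.3 in mouse 2.

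The next clusters by number of peaks differed in where they lay. At Zfp36l2, whose RNA-binding product speeds the decay of certain mRNAs, 36 peaks at chr17:84143294-84191220 lay mostly past the end of the gene. Of these, 34 were downstream and 2 upstream, and they fell into 16 accessible regions in each mouse. The cluster at chr16:95855341-95930340 held 33 peaks and overlapped no protein-coding gene. Its middle lay 97.1 kb from the nearest protein-coding start site, that of Psmg1, and 32 of its peaks fell in introns of annotated transcripts, where the annotation has the noncoding genes 1600002D24Rik and Gm15340. The summed signal of the chromosome 16 cluster ranked 4th in mouse 1 (73.1) and 45th in mouse 2 (60.8). At Rara, which encodes the retinoic acid receptor alpha, 23 of 24 peaks lay in the gene body. The median signal of these 24 peaks was 0.664 in mouse 1 and 0.761 in mouse 2, below the medians of single distal peaks. So were the medians at Zfp36l2 (0.772 and 0.693) and in the chromosome 16 cluster (0.632 and 0.549). A large cluster was thus not always made of high peaks.

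The remaining clusters among the 20 with most peaks lay at genes of varied roles. The 21 peaks at Kdm6b, an H3K27 demethylase, spanned 41.9 kb with 5 protein-coding genes. They fell into 8 accessible regions in mouse 1 and 7 in mouse 2. At Ddit4, an inhibitor of mTORC1, 20 of 21 peaks lay upstream of the gene. Of the 20 peaks at Nup214 and Fam78a, 6 lay in the body of Nup214 and 14 in that of Fam78a. The 18 peaks nearest to Rasgrp1, which activates Ras below the T-cell receptor, were all intergenic, and the middle of the cluster lay 82.2 kb from the Rasgrp1 start site. Hdac7, a class IIa deacetylase of thymocytes, had 16 peaks, 12 of them in the gene body. All 16 peaks at Ccnd3, the cyclin that drives the growth of thymocytes after the first receptor checkpoint, and all 16 at Prex1, an exchange factor for Rac, lay inside the gene. The clusters at Il21r and Mef2d had 16 peaks each, in 6 accessible regions of each mouse at Il21r, and in 9 and 12 at Mef2d. Those at Als2cl and Fam240a, at Dnajb12, at Cacnb1, at Id3 and E2f2, and at Ptp4a3 had 15 each.

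**Figure D1:**
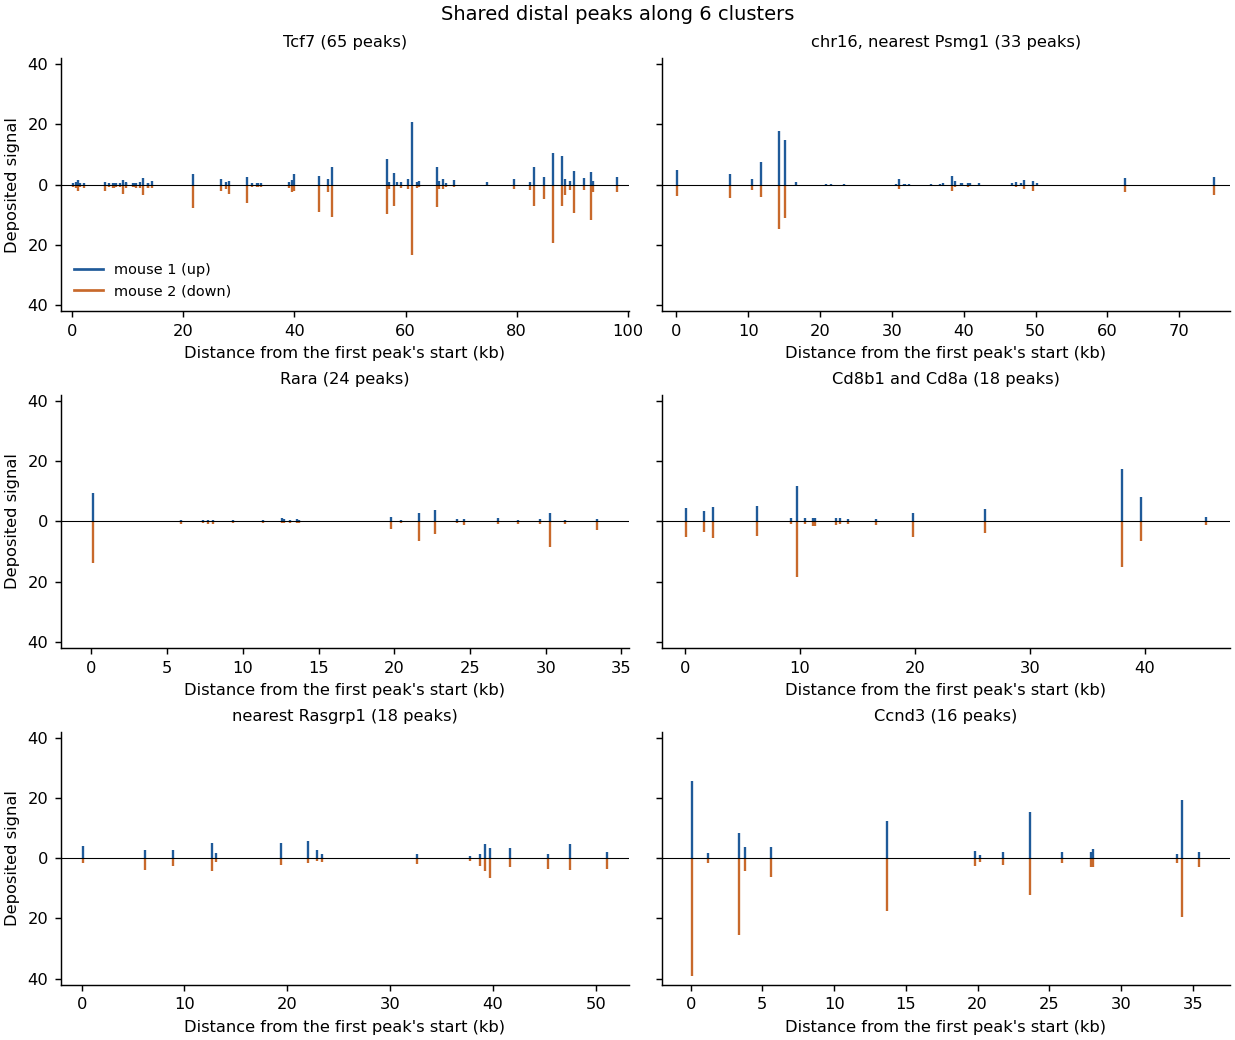
Signal of each shared distal peak (vertical lines, deposited units) against its distance in kb from the start of the first peak, in 6 clusters; mouse 1 is drawn upwards and mouse 2 downwards. The Tcf7 cluster has 65 peaks with a highest signal of 20.8 in mouse 1 and 23.3 in mouse 2, while most of the 24 Rara peaks are low in both mice.

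Ranked by summed signal, the order changed, and part of it differed between the mice. Ccnd3 was 2nd in both mice, with a summed signal of 106 in mouse 1 and 141 in mouse 2. The cluster across Plxdc1, Arl5c, Cacnb1 and Rpl19 was 3rd in both, with 76.8 and 125. The cluster at Fmod and Btg2, Btg2 being an antiproliferative factor, was 5th in both, with 71.6 and 102. Of the 10 clusters with the highest summed signal in each mouse, 5 were among the 10 of both, and of the highest 50, 38 were. Over all 618 clusters Spearman's rho between the mice was 0.884, as a description of clusters that share their libraries.

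Some clusters had a much higher summed signal in mouse 2. The cluster nearest to Ptma, the prothymosin alpha gene, had a summed signal of 44.3 in mouse 1 and 111 in mouse 2. The cluster nearest to Chd2, a chromatin remodeller, had 37.4 and 85.2, and the cluster at Id3 and E2f2 had 44.1 and 88.7. In all, 124 clusters (20.1%) had a higher summed signal in mouse 1. The sums of mouse 2 count partner peaks only, once each, so the sums of the mice can cover different numbers of peaks. The median log2 ratio of mouse 1 over mouse 2 was -0.37, with a range from -1.63 to 1.01. This ratio fell with the GC content of the peaks, with a Spearman's rho of -0.52 across clusters; the part of base composition in the difference between the mice was not tested.

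**Figure D2:**
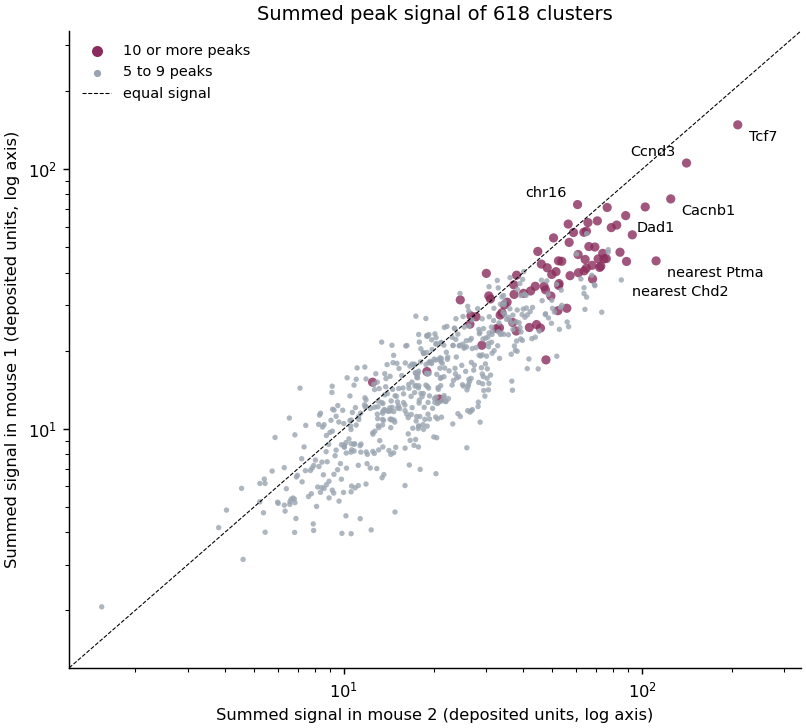
Summed signal of 618 clusters in mouse 1 (vertical log axis) against mouse 2 (horizontal log axis), deposited units. Mouse 2 sums cover the partners of the mouse 1 peaks, each counted once. The dashed line marks equal signal, and larger points are clusters of 10 or more peaks. Tcf7 lies at the top in both mice with 148 and 209, and 20.1% of the clusters lie above the line.

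The smallest spans and the most remote positions belonged to other clusters. The densest was a group of 5 peaks in 2060 bp at chr2:163101581-163103640, nearest to Gtsf1l, with 24.3 peaks per 10 kb. Its peaks fell into 2 accessible regions in mouse 1 and 3 in mouse 2. Among the 10 densest were clusters inside Tox, a factor needed for CD4 T cells, and at Zfp36l1, a relative of Zfp36l2. The cluster at Zfp36l1 came down to 2 separate sites once touching peaks were merged. The 5 clusters farthest from a protein-coding start site were nearest to Sox6 (382 kb), 3110018I06Rik (366 kb and 340 kb), Cog6 (353 kb) and Noct (320 kb). Both clusters nearest to 3110018I06Rik lie in the long gene-poor stretch next to Bcl11b, a zinc-finger factor of T-lineage commitment. The first, at chr12:107118441-107126320, held 12 peaks in 7880 bp, with a summed signal of 30.0 in mouse 1 and 34.5 in mouse 2.

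Clusters occurred on every autosome, at different densities. Chromosome 11 had 71 clusters, or 58.2 per 100 Mb, and 26.1% of its shared distal peaks were clustered. Chromosome 14 was lowest, with 14 clusters, 11.2 per 100 Mb and 10.4% of its shared distal peaks.

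Most clusters overlapped a protein-coding gene, and the share of intronic peaks was close to that of the other distal peaks. Of the 618 clusters, 213 overlapped no protein-coding gene, 322 overlapped 1, 76 overlapped 2 and 7 overlapped 3 or more. All peaks were intronic in 166 clusters and intergenic in 155. A protein-coding start site lay within the span of 204 clusters, and 202 clusters held a promoter peak in both mice. The middles of the 213 gene-free clusters lay a median of 37928 bp from the nearest protein-coding start site, and 64 of them overlapped a noncoding gene. For 249 clusters the gene with the nearest start site was not one that the cluster overlapped, so overlapped and nearest genes are given apart. Clustered peaks were intronic in 48.7% of cases, against 47.8% of the other shared distal peaks, a difference whose sign held on 10 of 19 autosomes.

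No cluster overlapped an annotated antigen receptor segment, but 1 began beside one. Peaks within 1 kb of any annotated start site, those of receptor segments included, were left out before joining. The absence of overlap is therefore partly set by the rule and is not a result about these segments. The cluster at chr14:54224582-54239340 started 375 bp past Trac, the constant segment of the T-cell receptor alpha chain, and ran into Dad1, a subunit of the oligosaccharyltransferase. The T-cell receptor alpha enhancer is known to lie in this interval. It held 11 peaks, whose signals summed to 66.3 in mouse 1 and 88.1 in mouse 2. Its highest peak in mouse 1, at 28.0, was the highest of any clustered peak in that mouse.

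Clustered peaks were higher than the other shared distal peaks in both mice. The median signal was 1.81 in clustered peaks and 1.08 in the other distal peaks of mouse 1, and 2.29 and 1.64 in mouse 2. On the log2 scale the difference of medians was 0.74 in mouse 1 and 0.48 in mouse 2, and it was positive on 19 of 19 autosomes in each. The signal climbed with the size of the joined group: peaks standing alone had a median of 0.868 in mouse 1 and 1.45 in mouse 2, peaks of pairs 1.14 and 1.67, peaks in groups of 3 to 4 had 1.46 and 1.98, in groups of 5 to 9 they had 1.79 and 2.28, and in groups of 10 or more 1.85 and 2.35. Quartiles overlapped between neighbouring sizes. From groups of 5 to 9 to groups of 10 or more the lower quartile fell, from 1.17 to 1.07 in mouse 1 and from 1.35 to 1.24 in mouse 2. The median log2 ratio of mouse 1 over mouse 2 was -0.29 at clustered peaks and -0.51 at the other distal peaks. The sign of the difference between these ratios held on 18 of 19 autosomes. As the scale of the signal is not named, the ratios do not say where the mice differed more. The clusters were also joined from peaks of mouse 1. A peak had to be called, and called in both mice, to count towards a cluster, so signal and membership are not independent and no test was made. Among the stronger 50% of peaks, clusters rebuilt from these alone differed by 0.26 in mouse 1 and 0.15 in mouse 2. Peaks of mouse 2 joined without asking for a partner in mouse 1 differed by 0.19.

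**Figure D3:**
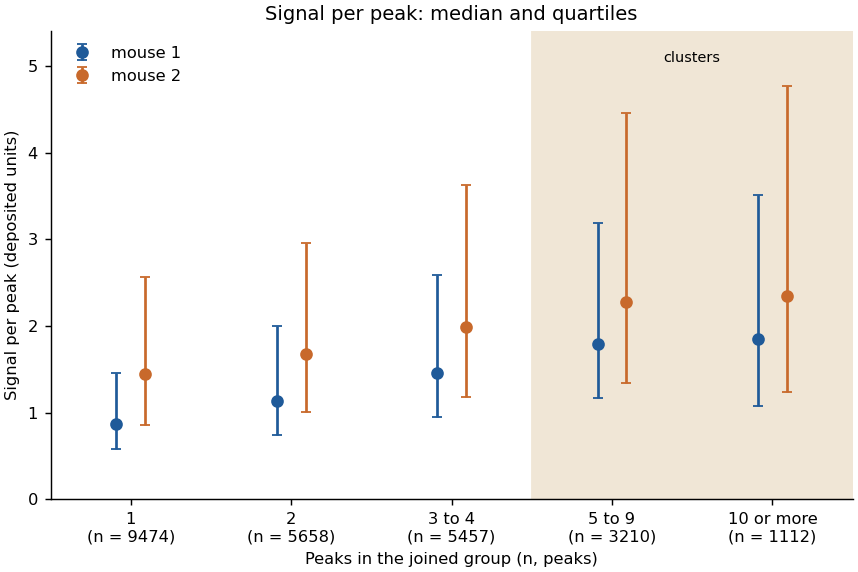
Signal per peak in deposited units (points, medians; bars, quartiles) by the number of peaks in the joined group, for mouse 1 and mouse 2, with the number of peaks below each size; the shaded sizes are the clusters. Medians go up from 0.868 for single peaks to 1.85 for groups of 10 or more in mouse 1, and from 1.45 to 2.35 in mouse 2, with overlapping quartiles.

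Clustered peaks were wider, and among shared peaks they held more footprints per peak but not per length. Median widths were 232 bp in clustered and 200 bp in other distal peaks of mouse 1, and 200 bp and 180 bp in mouse 2. A footprint is a short run of protected bases within an accessible site, where a bound protein shields the DNA from cutting. Clustered peaks had 3.47 footprints on average and the other distal peaks 3.06 in mouse 1, and 3.30 and 3.10 in mouse 2. Per 100 bp the order turned, with 1.48 in clustered and 1.51 in other distal peaks of mouse 1, and 1.53 and 1.62 in mouse 2. Averaged over the mice the difference per peak was 0.310, but 0.0969 among the stronger 50% of peaks and 0.164 in peaks of lowest GC content, and it turned to -0.111 in mouse 2 when its peaks were joined without asking for a partner. Fewer clustered peaks had any footprint: 91.7% of clustered and 95.5% of other distal peaks in mouse 1, and 93.4% and 96.9% in mouse 2, with the same sign on 18 of 19 autosomes in each. Leaving out peaks with a CTCF match, the shares were 91.2% and 94.9% in mouse 1, and 93.0% and 96.4% in mouse 2.

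Base composition differed little. The median GC content was 53.8% in clustered and 52.7% in other distal peaks, higher in clustered peaks on 18 of 19 autosomes. Repeat-masked bases made up 12.0% of clustered and 11.9% of other distal peaks. Within 3 bins of GC content the signal difference stayed between 0.73 and 0.77 in mouse 1, and between 0.40 and 0.46 in mouse 2.

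Of the 12 motifs, CTCF differed most, with fewer matches in clusters. CTCF is the zinc-finger protein that marks many insulators and the anchors of chromatin loops. Counting matches on either strand in the central 200 bp of each peak, 8.14% of clustered peaks held a CTCF match, against 18.01% of the other shared distal peaks. The difference of -9.87 percentage points had the same sign on 19 of 19 autosomes. For scale, 9.49% of all autosomal peaks and 4.63% of promoter windows of the same length held a match. The same letters read backwards, a control of base composition, matched 0.139% of clustered and 0.175% of other distal peaks. For CTCF this control is weak, because the backwards letters require a C followed by a G and the forward letters do not. CTCF matches were footprinted in most cases, at 82.6% of the matches in clustered and 85.4% in other distal peaks of mouse 1, and 85.4% and 94.5% in mouse 2. Peaks with a CTCF match had a higher signal in mouse 2 relative to mouse 1 than peaks without one. As the scale is not named, this does not say which peaks differed more between the mice. With a match, the median signal in clusters was 1.52 in mouse 1 and 3.57 in mouse 2. Among the other distal peaks it was 0.842 and 1.96. Without a match the medians were 1.84 and 2.22 in clusters, and 1.16 and 1.57 among the other distal peaks.

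The share of peaks with a CTCF match went down with the size of the joined group. It was 23.0% in peaks standing alone, 16.6% in pairs, 10.8% in groups of 3 to 4, 8.41% in groups of 5 to 9 and 7.37% in groups of 10 or more. Within clusters it depended on place: 6.03% of the 3086 inner peaks held a match, against 13.4% of the 1236 first or last peaks. The next shared distal peak outside a cluster held one in 18.2% of 1125 cases, and the remaining distal peaks in 3504 of 19464. In all, 353 clusters had no CTCF match and 265 had at least 1. Spacing alone was the rule for membership, and a first or last peak has a gap of over 12500 bp on one side by construction. Among the stronger 50% of peaks the difference was smaller, at -4.00 percentage points.

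Of the motifs of T-lineage factors, RUNX and TCF/LEF letters were found in a smaller share of clustered peaks, and ETS and E-box letters in a slightly larger one. RUNX letters, bound by factors that silence Cd4 and open Cd8, matched 21.5% of clustered and 24.4% of other distal peaks, with the same sign on 17 of 19 autosomes. TCF/LEF letters (CTTTGA), bound by the product of Tcf7 itself, matched 14.6% and 16.5%, on 16 of 19 autosomes. Read backwards, the RUNX letters matched 13.9% of clustered and 13.2% of other distal peaks, and the TCF/LEF letters 10.9% and 11.6%. Backwards ETS letters matched 19.1% of clustered and 18.03% of other distal peaks, a larger difference than that of the ETS letters, and backwards E-box letters 15.6% and 16.9%. The share of peaks with a RUNX match was lowest in groups of 10 or more, at 18.6%. ETS letters matched 42.3% of clustered and 41.6% of other distal peaks, with the same sign on 11 of 19 autosomes. E-box letters matched 63.9% and 61.7%, on 13 of 19. All autosomal peaks, promoters included, had lower shares of these motifs: 18.7% for RUNX, 35.5% for ETS, 13.6% for TCF/LEF and 51.7% for E-boxes. Counted by cluster, 293 of 618 held matches to all of RUNX, ETS, TCF/LEF and E-box letters somewhere among their peaks.

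The remaining motifs differed by less than 2 percentage points between clustered and other distal peaks. SP/KLF letters (GGGCGG) matched 13.9% of clustered and 12.3% of other distal peaks, and their backwards form matched 13.03% and 11.4%. GATA letters (AGATAA) matched 6.57% and 7.23%. AP-1 letters (TGANTCA) matched 6.80% and 6.77%. NFAT letters (GGAAAA), which can share bases with ETS letters, matched 11.9% and 12.2%. STAT letters (TTCNNNGAA) matched 5.34% and 5.49%, and NF-kB letters (GGGANTTCC) 0.902% and 1.05%. For these 6 motifs the sign held on 8 to 12 of the 19 autosomes.

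**Figure D4:**
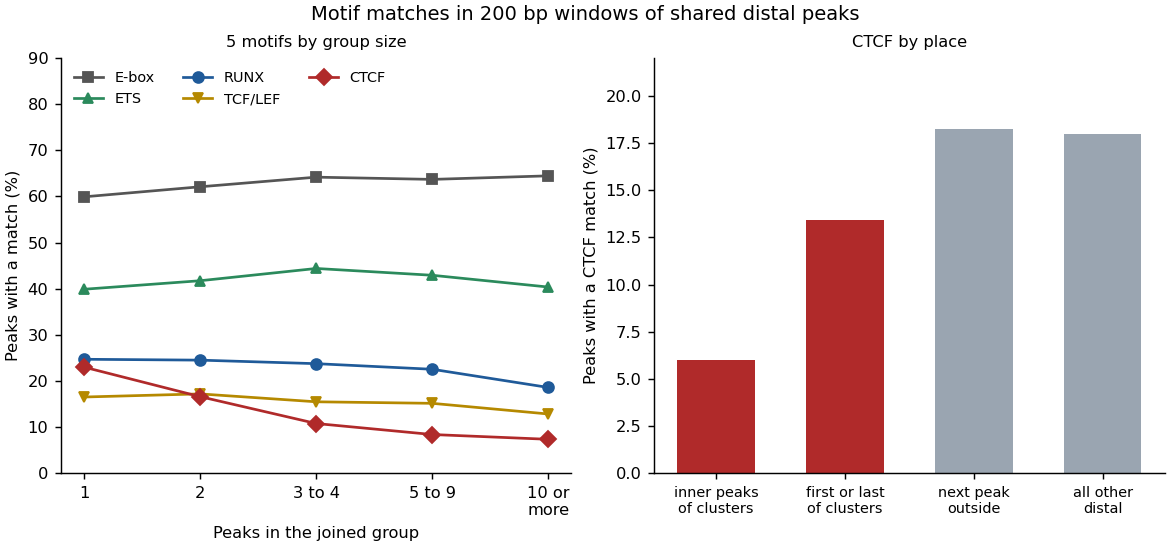
Left, share of shared distal peaks with a match (percent, central 200 bp, either strand) to 5 motifs by the number of peaks in the joined group. Right, share with a CTCF match in inner and in first or last peaks of clusters, in the next shared distal peak outside and in all other shared distal peaks. CTCF goes from 23.0% in single peaks to 7.37% in groups of 10 or more, and within clusters 6.03% of inner peaks hold a match against 13.4% of the first or last.

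Genes at clusters were read against all 20780 autosomal protein-coding genes. Clusters overlapped 470 of these, or 2.26%, and 693, or 3.33%, were overlapped by a cluster or had the nearest start site to the middle of one. The overlapped genes were long, with a median length of 44855.5 bp against 17636 bp for all. The part of gene length in the overlap was not tested. Of the 470 overlapped genes, 413 (87.9%) had a promoter peak in both mice, and of all autosomal protein-coding genes 57.3% did. Of the 580 nearest genes 84.7% had one. Among the 7810 genes that were nearest only to other shared distal peaks, the share was 71.6%.

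Several genes had more than 1 cluster. Lef1, whose product is a partner of TCF1, had 4, of which 2 overlapped the gene. Gse1 also had 4, with 34 peaks in all. Bcl11b had 3, and so did Ldlrad3. The predicted gene Gm20388 was overlapped by 11 clusters, but its annotated body at chr8:119910841-124345722 is 4434.9 kb long and covers Gse1 and many other genes.

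Transcription factors of thymocytes were the list with the largest share overlapped by or nearest to clusters. Of 30 factors, 11 were overlapped by a cluster (36.7%, against 2.26% of all genes) and 18 were overlapped or nearest (against 3.33% of all genes). Among the overlapped factors were Tcf7, Id3, Ikzf3, Runx1, Foxp1, Lef1, Bcl11b, Ikzf1, Gfi1 and Tox. Ets1, Foxo1, Gata3, Id2, Runx3, Satb1 and Bach2 were nearest to a cluster without overlap. Tcf3 and Tcf12, which encode the E proteins E2A and HEB, and Notch1 were among the 12 with neither. These factors are long genes, with a median of 86405 bp, and the list was chosen with earlier results of these data known.

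Within this list the clusters ranged widely. Ikzf3, an Ikaros-family factor of late thymocytes, had 12 peaks with a summed signal of 42.6 in mouse 1 and 67.9 in mouse 2. The cluster in Runx1 held 7 peaks with 27.1 and 25.1. That at Satb1, an organiser of thymocyte chromatin, held 9 peaks of mouse 1 and 11 of mouse 2. Its summed signal was 27.2 in mouse 1 and 17.4 in mouse 2, the latter over partner peaks only. The largest Bcl11b cluster held 12 peaks with 20.98 and 29.0, and its middle lay 235896 bp from the start site. The cluster nearest to Gata3, a factor of T-lineage commitment and CD4 fate, lay 279081 bp away and packed 6 peaks into 3820 bp. Among the weakest were the 5 peaks nearest to Id2, an inhibitor of E proteins, with 6.96 and 9.53, and a 5-peak cluster of Lef1 with 5.69 and 9.98.

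Of 20 receptor and co-receptor genes 5 were overlapped (25%, against 2.26% of all genes). In all, 6 were overlapped or nearest (30%, against 3.33% of all genes). Cd8b1 and Cd8a, the chains of the co-receptor for MHC class I, shared a cluster of 18 peaks at chr6:71331601-71376966, with a summed signal of 71.2 in mouse 1 and 76.4 in mouse 2. Of its peaks, 15 lay downstream of Cd8b1 and 17 upstream of Cd8a, so most lay between the genes. Cd4, the co-receptor for MHC class II, had 11 peaks with 50.1 and 69.5. Cd2, an adhesion molecule, had 11 with 35.4 and 46.9, and Cd247, the zeta chain of the receptor, had 10 with 25.7 and 36.8. Thy1 was nearest to a cluster of 13 peaks with 48.2 and 44.7. Cd3e, Cd3d, Cd3g and Ptcra had none, as is the case for most genes, so not every gene of the receptor stood at a cluster.

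Signalling, survival and migration genes were also found at clusters. Of 19 signalling genes 4 were overlapped (Fyn, Prkch, Prkcq and Sla), or 21.1%, against 2.26% of all genes. Rasgrp1 was nearest to a cluster. Lck, Zap70 and Lat had none, as is the case for most genes. Of 20 genes of survival and cell cycle 5, or 25%, were overlapped (Ccnd3, Bcl2l1, Bcl2l11, Socs1 and Socs3), while others, among them Myc, were nearest. Bcl2l1 encodes the survival protein BCL-XL and had 6 peaks with a summed signal of 32.6 in mouse 1 and 34.3 in mouse 2. The Myc cluster of 5 peaks lay 182109 bp from the start site. Of 16 genes of migration and adhesion 6 were overlapped, or 37.5% (among them Ccr7, Ccr9, Dock2, Plxnd1 and Selplg), and Cxcr4 was nearest. Ccr9, the receptor for the thymic chemokine CCL25, had 5 peaks with a summed signal of 38.2 and 36.1. Of 12 genes of V(D)J recombination 8.33% were overlapped, which is Dntt alone. Dntt encodes the terminal transferase TdT and had 8 peaks with 34.9 and 32.9. Neither Rag1 nor Rag2 was nearest to a cluster, as is the case for most genes.

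Lists of other cells had between 0 and 2 members at clusters. With 3.33% of all genes overlapped or nearest, a list of this size with no member is near the background, so its 0 is not a result about the list. None of 14 B-cell genes, 12 genes of mesenchyme and endothelium, 14 hepatocyte genes, 13 neuronal genes and 12 muscle genes was overlapped or nearest. Of 16 myeloid genes only Itgam was overlapped. Of 14 genes of thymic epithelium Cldn4 was overlapped and Krt8 was nearest. Of 15 genes of mature effector, natural killer and regulatory T cells Il2ra was overlapped and Klrb1c was nearest to 2 clusters. Of 14 housekeeping genes none was overlapped, and 2, among them Actb, were nearest. The shares overlapped or nearest in the thymic epithelium list (14.3%), the housekeeping list (14.3%) and the mature effector list (13.3%) were above the 3.33% of all genes, on 2 members each. The cluster nearest to Actb held 8 peaks with a summed signal of 26.9 in mouse 1 and 40.5 in mouse 2, so clusters were not limited to genes of T cells.

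**Figure D5:**
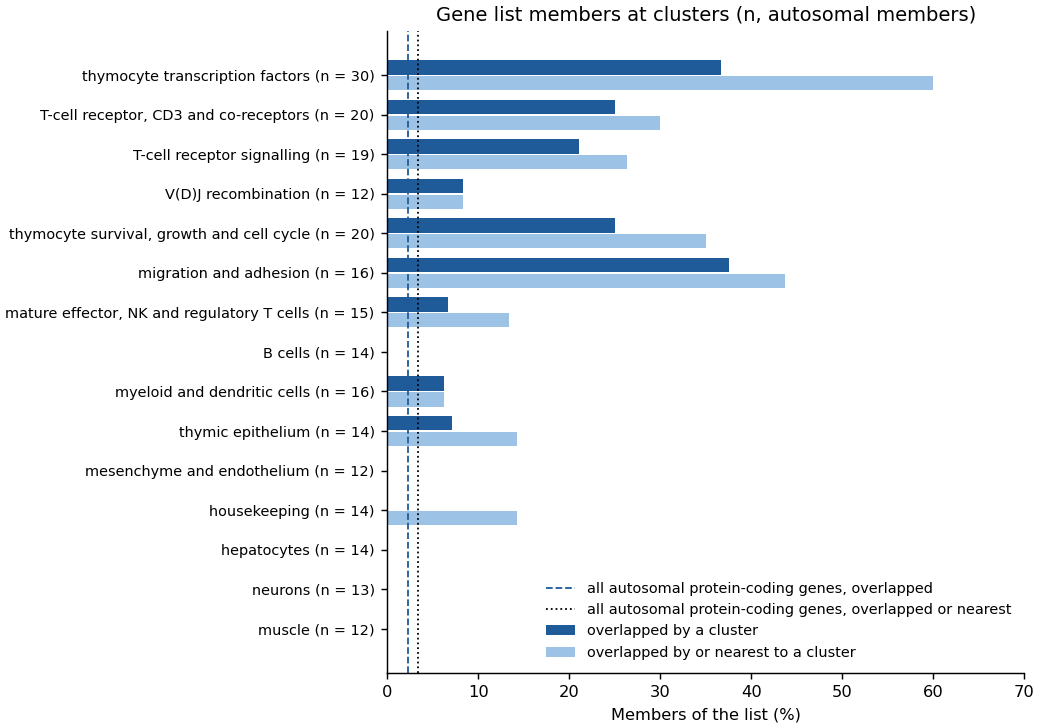
Share of the autosomal members of 15 gene lists (percent) that a cluster overlaps (dark bars) or that a cluster overlaps or lies nearest to (light bars); the dashed line marks 2.26% and the dotted line 3.33%, the same shares of all autosomal protein-coding genes. Thymocyte transcription factors reach 36.7% for overlap and 18 of 30 in all, and 5 lists have no member at a cluster.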

How the data were processed

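DNase-seq libraries of thymus from 2 mice were analysed from the deposited files in mm10. The labels number the animals apart (Female 05 and Female 06) but give both the same donor entry. They were treated as separate animals, which could not be checked further. Names of the aligner, peak caller and footprint caller were not given in the sources used here. Each library has its own peak lists, with no pooling. The authors deposited a signal per peak on a scale that is not named: all values were whole multiples of 0.00638 in mouse 1 and 0.00504 in mouse 2 (100% within 0.1 steps), so no counting interval is given. The p-value column that the authors deposited with base runs is a false discovery rate, listed below 0.05. Of the deposited footprints only positions were used, since their score is 1 constant value.

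Start sites and genes came from the GENCODE M21 annotation. Peaks were joined as described, and each shared peak of mouse 1 was paired with the mouse 2 peak that overlaps it most. Summed signals of mouse 2 count each of these partners once and leave out other mouse 2 peaks. Nearest genes were taken from the middle of a cluster to a protein-coding start site. The joining was tested on simulated data, where it recovered the 200 planted clusters. Clusters in the simulated data were also counted with bedtools 2.31.1. Python 3.11.15, numpy 2.4.6, pandas 2.3.3 and matplotlib 3.10.9 were used. With 2 mice, no exact test over mice can reach 0.05, so none was made and values are given per mouse, with the number of 19 autosomes on which a sign held. The clusters, gene lists (15) and motifs (12) were chosen with earlier results of these data known. Some members of the gene lists and 1 motif are counted but not reported by name here.

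The named clusters are the 20 with most peaks, the 10 densest, the 5 longest, the 10 with the highest summed signal in each mouse and the 5 farthest from a protein-coding start site. List members at clusters are named too, with those of the Trac and Dad1 interval and a few list members without a cluster chosen after their values were seen. Alternatives covered the joining gap, the fewest peaks, the distance and kind of start site, the overlap, the joined library, peak strength, the longer peak list and single mice.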

Additional observations from a re-analysis of the deposited data

How the results depend on the processing

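The number of clusters depends on the rule: 319 with a gap of 5 kb, 1075 with a gap of 25 kb, 1125 with at least 4 peaks, 150 with at least 8, 255 from the stronger 50% of peaks and 1596 from the longer peak list. In the order of these 6 settings the clustered share of shared distal peaks was 8.73%, 32.4%, 25.5%, 6.80%, 16.6% and 29.0%, and the share of protein-coding genes overlapped was 0.847%, 5.85%, 3.70%, 0.717%, 0.977% and 5.67%. Of the 30 thymocyte transcription factors, 5, 17, 18, 5, 8 and 22 were overlapped, and the difference in CTCF matches was -10.7, -8.997, -10.3, -9.38, -4.00 and -9.88 percentage points. The clustered share was 14.9% at over 2.5 kb from every start site, 19.6% with protein-coding start sites only, 16.9% with an overlap of at least 50% of the shorter peak, 17.8% with the peaks of mouse 2 joined and 16.6% with touching peaks merged. In these settings 1.36%, 2.61%, 2.17%, 2.31% and 2.18% of genes were overlapped. With the peaks of mouse 2 joined, the CTCF difference was -10.3 points.

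Clustered peaks had the higher signal under every alternative run. Averaged over mice, the log2 difference was 0.61, but 0.20 among the stronger 50% of peaks and 0.26 against groups of 3 or 4 peaks. The stronger 50% also gave smaller differences in width (10 bp against 26 bp), in footprints (0.0969 against 0.310 per peak) and in GC content (0.815 against 1.12 points), and 3 in place of 5 of 12 motifs higher in clusters. The footprint difference was 0.164 in peaks of lowest GC content and turned to -0.0612 per 100 bp. The GC difference was 1.38 points with the peaks of mouse 2 joined, 1.31 with a gap of 5 kb, 1.35 with at least 8 peaks and 0.925 in the longer list.

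From 1 mouse alone, with no sharing asked, there were 1037 to 1488 clusters, holding 25.2% to 32.8% of distal peaks and overlapping 3.71% to 6.56% of genes and 16 to 17 of the transcription factors. Signal differed by 0.19 in mouse 2 and 0.59 in mouse 1, footprints by -0.111 and 0.200 per peak, widths by 20 bp in each, GC content by 1.26 and 0.809 points and CTCF matches by -12.9 and -9.72 points, and 4 motifs were higher in clusters. The cause of these changes was not tested. Merging touching peaks, leaving out CTCF matches and the set of groups of 3 or 4 peaks were chosen after seeing the data. Of 156 values under alternatives, 94 stayed within the spread between the mice or within 1.5 times the count, 60 moved further and 2 changed sign. For shares and sequence results, which have no value per mouse, the spread was that between the main setting and the joined peaks of mouse 2. There, joining the peaks of mouse 2 counts as moved by construction. No paired analysis was possible because the labels give no second group with the same replicate numbers; clustered and other distal peaks were compared within each mouse throughout. The depth behind a signal is unknown, and 2 mice give no estimate of error beyond their difference.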
